A study of Mus musculus with 2 samples.

Results

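The messages of 46 genes of DNA damage signalling and repair were compared between long-term hematopoietic stem cells (LT-HSCs) of 2 genotypes. The 46 genes were taken by name: every probe that is not a control and whose gene name in the scanner files is one of them, under its current or an older symbol. They had 58 probes and made up 46 of the 22555 genes that could be named on the array. LT-HSCs were sorted from bone marrow of C57BL/6J mice 2 years old and profiled with 1 single-colour Agilent array per genotype, labelled WT and p38KO. In the p38KO mice a floxed p38α gene (Mapk14) had been deleted about 1 year before the sort by tamoxifen, through CAG-CreERT2, a Cre recombinase driven by a promoter active in most tissues, so the deletion was not limited to blood cells. The controls were given tamoxifen too, so that both groups share the floxed allele and the drug, and carried no Cre. The cell type label gives CD150+CD48-Flt3-CD34- LSK cells (lineage-negative, Sca-1+, c-Kit+), whereas the series' design text gives the gate without CD150 and CD48. How many mice went into an array is not given in the sources used here.

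Cells meet a DNA lesion with sensors and kinases that halt division, and then with a repair route that depends on the lesion. Breaks of both strands are sensed by the Mre11-Rad50-Nbn complex and the kinase ATM, whereas stretches of exposed single strand activate ATR, and the kinases CHK2 and CHK1 relay the respective signals. Breaks are rejoined directly by end joining or copied from the sister chromatid by homologous recombination. Fanconi anemia proteins clear crosslinks between the strands, mismatch repair corrects copying errors, nucleotide excision repair cuts out bulky adducts, and base excision repair replaces single damaged bases. HSCs are long-lived and mostly quiescent. They are known to depend on several of these routes, ATM among them, and to gather DNA damage with age, and p38MAPK is a stress kinase that responds to such damage.

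Most of the 46 messages were close to each other on both arrays. Each signal is the scanner's processed intensity on a log2 scale relative to the array's own 75th percentile, the brightest probe stands for a gene, and differences are the array labelled p38KO minus WT. Of the 46 genes, 45 (97.8%) were well above background on both arrays, whereas 76.2% of all named genes were so on at least 1 array. Fancd2 was too dim on both arrays. Of the 45, 24 were lower and 21 higher on the array labelled p38KO, and their median difference was -0.03, as was that of all 17194 genes measured. A difference under 1.5-fold was seen for 37 of the 45 (82.2%) and for 71.7% of all genes measured. With 1 array per genotype there is no spread between mice, so no test was made and no value below has a p-value. The error that could be measured is that between repeated spots of a probe on an array: over 276 probes with 3 or more spots on each array, the SD of a difference between 2 single spots was 0.14 (median, log2), and it rose to 0.34 for signals more than 2 below the 75th percentile.

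**Figure D1:**
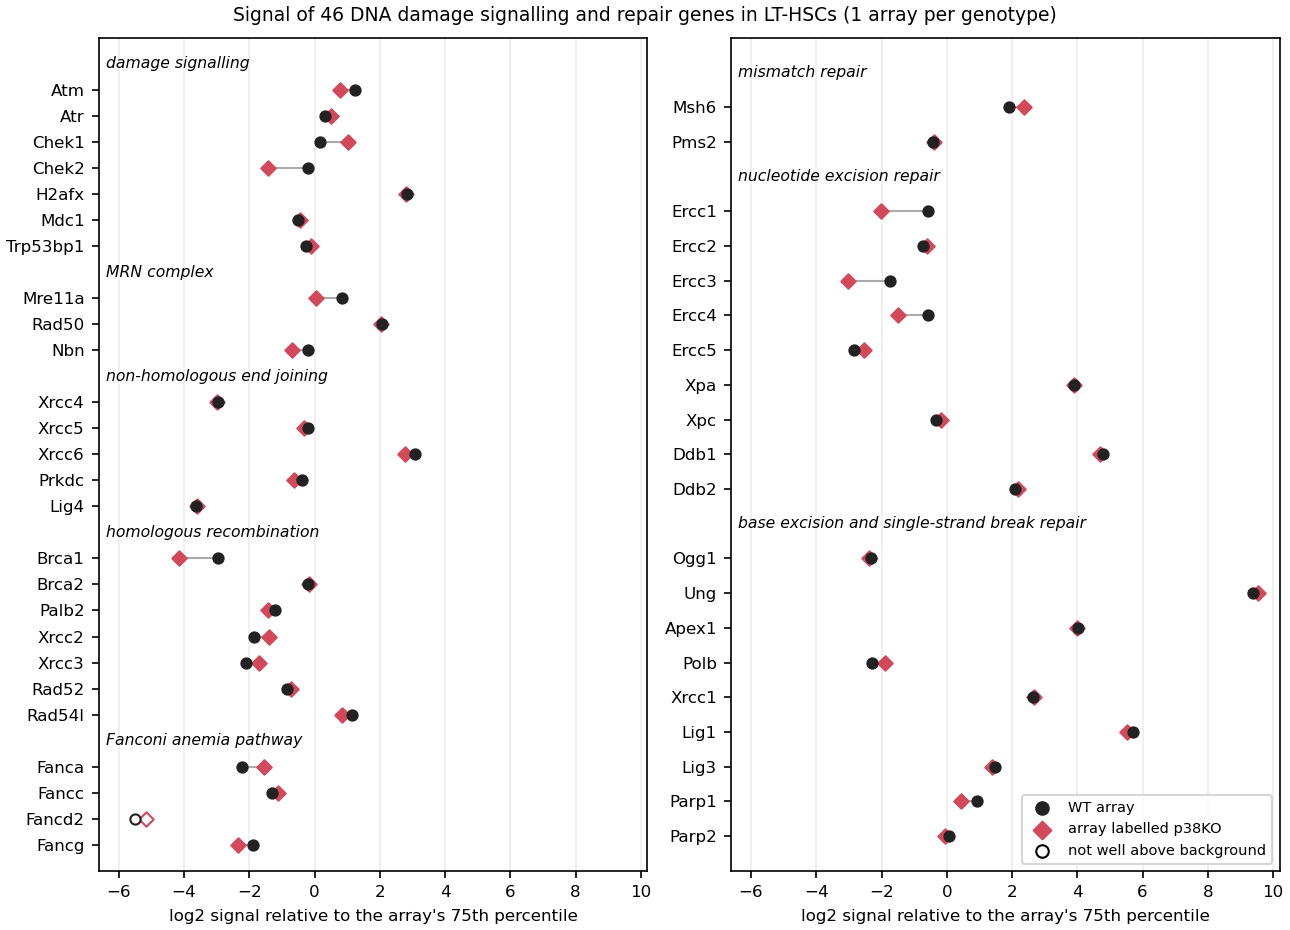
Signal of each of the 46 genes at its brightest probe, grouped by pathway, as log2 relative to the array's 75th percentile; circles are the WT array, diamonds the array labelled p38KO, open symbols are not well above background, and a line joins the 2 arrays. For 37 of 45 measured genes the symbols lie less than 1.5-fold apart, and the widest gaps, at Ercc1, Ercc3, Chek2 and Brca1, have the array labelled p38KO on the low side.

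Beyond 2-fold, 4 of the 45 genes were lower (Ercc1, Ercc3, Chek2 and Brca1) and 0 were higher on the array labelled p38KO. Of all genes measured, 6.71% passed the same fold downwards and 4.11% upwards. At 1.5-fold, 6 genes were lower (Ercc4 and Mre11a besides) and 2 higher (Chek1 and Fanca). Of all genes measured, 15.6% passed it downwards and 12.7% upwards. The members' shares, 8.89% lower at 2-fold, 13.3% lower and 4.44% higher at 1.5-fold, are thus near those of all genes on the low side and rest on 2 genes on the high side, and nothing in these counts sets the repair genes apart from the rest of the array.

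Large differences are more frequent among dim genes, and the 6 lower genes are of low or middling signal. Among all genes with a mean signal more than 2 below the 75th percentile 13.2% were at least 2-fold lower, against 7.67% between -2 and 0, 2.19% between 0 and 2, and 0.667% above 2. The 4 genes lower by 2-fold or more lie in the lowest 2 of these bands, which hold 8 and 18 of the members. The 11 members with a mean signal above 2 included 0 past 1.5-fold.

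**Figure D2:**
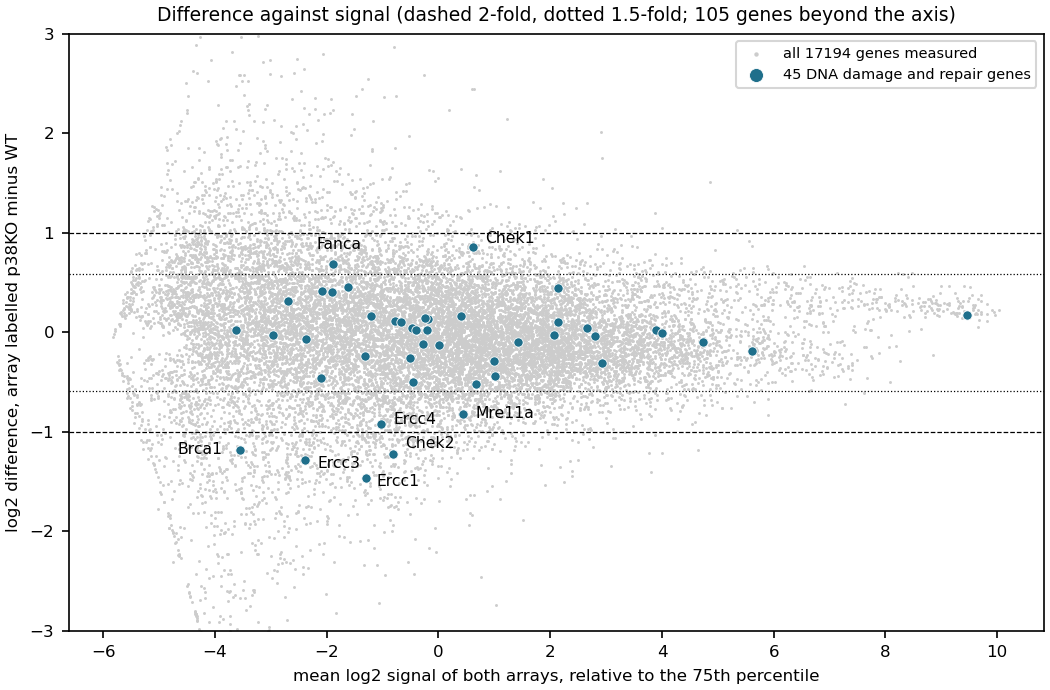
Log2 difference, array labelled p38KO minus WT, against the mean log2 signal of both arrays relative to the 75th percentile, for 17194 genes (grey) and 45 DNA damage and repair genes (blue); dashed lines mark 2-fold and dotted lines 1.5-fold, and 105 genes lie beyond the axis. The 4 repair genes below the lower dashed line sit left of the 75th percentile, where the grey cloud is wide, and the repair genes on the right lie near 0.

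The 7 genes below carry the differences past 1.5-fold whose probes can be shown. Their 60-base probes, as the array design gives them, read 5′ to 3′ in the sense of the message (build mm9; no capitals are used, as the whole probe is the target).
Ercc1 (chr7:19935530-19935589, plus strand): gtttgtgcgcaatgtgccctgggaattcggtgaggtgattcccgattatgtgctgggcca
Ercc4 (chr16:13148749-13148808, plus strand): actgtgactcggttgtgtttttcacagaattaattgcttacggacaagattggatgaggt
Chek2 (chr5:111294547-111294606, plus strand): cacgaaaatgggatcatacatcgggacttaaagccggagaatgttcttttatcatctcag
Brca1 (chr11:101359283-101363319, minus strand): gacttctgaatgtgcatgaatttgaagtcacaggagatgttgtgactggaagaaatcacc
Mre11a (chr9:14638340-14638399, plus strand): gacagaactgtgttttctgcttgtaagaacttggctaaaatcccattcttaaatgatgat
Chek1 (chr9:36516068-36516127, minus strand): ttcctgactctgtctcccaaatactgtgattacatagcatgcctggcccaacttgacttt
Fanca (chr8:125792210-125792269, minus strand): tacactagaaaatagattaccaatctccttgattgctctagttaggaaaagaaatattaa
The Brca1 probe covers 4037 bases of the genome with its 60 bases, so it crosses at least 1 intron, as do 7 of the 58 probes. The Ercc3 probe, not shown, is another of these. The other 6 probes above are unbroken in the genome. Ercc1, Ercc3, Ercc4, Chek2, Brca1, Mre11a and Chek1 each had 1 probe, spotted 1 time on each array, so none of these differences was read by a further probe or spot. How far a lone probe carries can be gauged over the whole array. In 136 genes the brightest probe was at least 2-fold lower and another probe was measured on both arrays. The next probe was lower in 90 of them (66.2%) and at least 2-fold lower in 34 (25%). Of all genes measured, 52.3% were lower and 6.71% at least 2-fold lower at the brightest probe.

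Of the damage signalling genes, 3 of 7 were lower and 4 higher, with Chek2 and Chek1 at the ends. Chek2, which encodes the kinase CHK2 that ATM activates, had a processed intensity of 125 on the WT array and 42.8 on the array labelled p38KO, a difference of -1.22 (2.33-fold lower). Chek1, which encodes CHK1, the kinase downstream of ATR, had 162 and 237, a difference of 0.86 (1.81-fold higher). The 2 checkpoint kinases therefore differed in opposite directions, each by more than the spot error at its signal (0.16 and 0.11). The spot error leaves out the gap between probes of a gene (median 0.41), and each kinase had 1 probe.

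The kinases above them differed less. Atm was read by a pair of probes. The brighter one, spotted 1 time, had intensities of 337 and 200, a difference of -0.44. The other, spotted 10 times, ran from 47.9 to 65.7 with a median of 57.4 on the WT array and from 38.4 to 49.5 with a median of 44.1 on the array labelled p38KO. After scaling, its difference was -0.08 with a standard error within arrays of 0.06, and the spots of both arrays overlapped. The lower Atm signal was thus seen at 1 probe and was within the spot error at the other. The probes lie in the same transcript in the array's annotation:
Atm, brighter probe (chr9:53245871-53245930, minus strand): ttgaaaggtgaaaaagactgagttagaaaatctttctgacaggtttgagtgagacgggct
Atm, probe with 10 spots (chr9:53256167-53256226, minus strand): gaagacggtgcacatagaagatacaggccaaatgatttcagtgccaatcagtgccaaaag
Atr differed by 0.16 (180 and 162 before scaling), and its other probe, which is annotated to the cDNA AK142244 and not to the reference transcript, by 0.96 (22.2 and 34.8).

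The genes whose proteins gather on broken chromatin did not stand out. H2afx, which encodes the histone variant that ATM phosphorylates around a break (γH2AX), had intensities of 1017 and 797, a scaled difference of -0.03. The array reads its message and says nothing of the phosphorylated histone. Mdc1, the adaptor that binds γH2AX, had 102 and 84.1, a difference of 0.04. Trp53bp1, which encodes 53BP1 and steers breaks to end joining, differed by 0.13 at its brighter probe (120 and 106) and by -0.87 at the other (64.5 and 28.2). The pair has opposite signs, so no direction can be given for Trp53bp1.

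**Figure D3:**
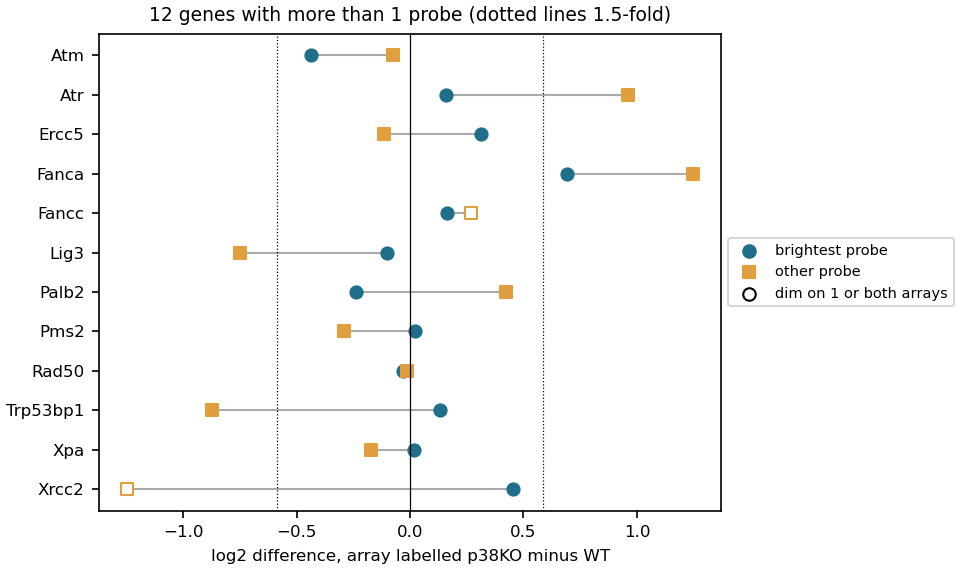
Log2 difference, array labelled p38KO minus WT, at each probe of the 12 genes with more than 1 probe; circles are the brightest probe of a gene, squares the other, open symbols were not well above background on 1 or both arrays, and dotted lines mark 1.5-fold. Rad50 has both probes near 0, Fanca has both above 1.5-fold and Trp53bp1 has them on opposite sides of 0.

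All 3 genes of the Mre11-Rad50-Nbn complex, which tethers broken ends and recruits ATM, had differences below 0, but of unequal size. Mre11a, the nuclease, had intensities of 259 and 117, a difference of -0.82 (1.77-fold lower). Nbn, the subunit that binds ATM, had 124 and 70.5, a difference of -0.50. Rad50, the tether, differed by -0.03 at its brighter probe (605 and 475) and by -0.01 at the other (241 and 191).

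Of the end joining genes, 0 of 5 passed 1.5-fold. Xrcc6 and Xrcc5, which encode the Ku70 and Ku80 subunits of the ring that caps a broken end, differed by -0.31 and -0.12. Prkdc, the catalytic subunit of the DNA-dependent kinase that Ku recruits, was 1 of 3 genes with a repeatedly spotted probe, beside Atm and Rad52. Its 1 probe was spotted 10 times on each array. On the scaled log2 axis its spots lay between -0.48 and -0.27 (median -0.38) on the WT array and between -0.80 and -0.51 (median -0.63) on the array labelled p38KO. The spots did not overlap and the difference was -0.26 with a standard error within arrays of 0.04. That error covers the spots of 1 probe, and neither other probes nor the mice. A difference of this size is common here: 33.1% of all genes measured had a lower one. The ligase Lig4 and its scaffold Xrcc4 were dim and differed by 0.02 and -0.03.

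Among the homologous recombination genes 3 of 7 were lower and 4 higher, and Brca1 alone passed 1.5-fold. Brca1, which promotes the resection of broken ends, was near the lower edge of detection, with intensities of 18.4 and 6.48 where the dimmest signals called well above background were 5.71 and 4.19. Its difference was -1.19 (2.28-fold lower), and spots this dim had an error of 0.34. Brca2, which loads the recombinase, differed by 0.03, and Palb2, which links BRCA1 to BRCA2, by -0.24 at the brighter probe and 0.42 at the other. Rad52, with 10 spots on the WT array and 9 on the other, ran from -1.05 to -0.69 and from -0.99 to -0.61, overlapped and differed by 0.12 (standard error within arrays 0.06). Xrcc2 and Xrcc3, paralogs of the recombinase, had 0.45 and 0.40, and the helicase-like Rad54l had -0.29. The Xrcc2 intensities were 40.0 and 43.9 at its brighter probe. The other probe of Xrcc2 was dim on both arrays (3.08 and 1.04, a difference of -1.25).

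Fanca, a subunit of the Fanconi core complex, was the only one of the 12 genes with more than 1 probe whose probes all passed 1.5-fold in the same direction. Its intensities were 30.6 and 39.6 at the brighter probe (difference 0.69, 1.61-fold higher) and 8.19 and 15.6 at the other (difference 1.25), which is annotated to the cDNA AK166112. Both probes are dim and the spot error there is 0.16 to 0.34. Other core complex members differed by 0.16 (Fancc) and -0.46 (Fancg). Fancd2, the protein that the core complex ubiquitinates, had intensities of 3.14 and 3.18, neither of them well above background, and gets no fold.

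Of the 9 nucleotide excision repair genes, 3 were lower by 1.5-fold or more (33.3%, against 15.6% of all genes measured), a share that rests on 3 single spots per array, and 0 were higher. Ercc1 had intensities of 97.0 and 28.3, a difference of -1.46 (2.76-fold lower), the lowest of the members, although 502 genes of the array had a still lower one. Ercc4, also called Xpf, had 96.8 and 40.9, a difference of -0.92 (1.90-fold lower). ERCC1 and XPF form 1 nuclease, which cuts on the 5′ side of the lesion and also acts on crosslinks. Ercc5, also called Xpg, encodes the nuclease of the 3′ side, and it differed by 0.31 at its brightest probe, annotated to the cDNA AK038822, and by -0.11 at the probe of the reference transcript.

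Ercc3, also called Xpb, a helicase of the transcription factor TFIIH that opens the DNA around the lesion, had 42.5 and 14.0, a difference of -1.28 (2.43-fold lower). Ercc3 was dim, with a mean signal of -2.39, a level at which spots had an error of 0.34. Its partner helicase Ercc2, also called Xpd, had 86.9 and 75.0, a difference of 0.11. The other subunits of TFIIH, picked out after their values were seen, were Gtf2h1 (-0.24), Gtf2h2 (-0.24), Gtf2h3 (-0.75), Gtf2h4 (-0.62), Gtf2h5 (0.41), Mnat1 (-1.02), Ccnh (-0.00434) and Cdk7 (-0.32). A further probe had the opposite sign in Gtf2h2 (0.07) and in Cdk7 (0.37). The lesion sensors Xpc and Ddb2, their partner Ddb1 and the verifier Xpa differed by 0.14, 0.11, -0.09 and 0.02. The other probe of Xpa differed by -0.17.

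Of the base excision and single-strand break genes, 0 of 9 passed 1.5-fold, with 6 lower and 3 higher. Parp1, the sensor of single-strand breaks, had the lowest difference of the group, -0.52 (275 and 154), and the related Parp2 had -0.13. The glycosylase Ogg1, which removes oxidized guanine, differed by -0.07, the endonuclease Apex1 by -0.01, the polymerase Polb by 0.41 and the scaffold Xrcc1 by 0.05. Lig1, the ligase of replication and repair, differed by -0.18. Lig3, the ligase that works with XRCC1, differed by -0.10 at its brighter probe and by -0.75 at the other.

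Ung, which encodes the glycosylase that removes uracil, is read by a probe with an unusual sequence (build mm9, chr5:114588731-114588790, plus strand), shown because 34 of its 60 bases are a run of GT repeats, in capitals:
Ung: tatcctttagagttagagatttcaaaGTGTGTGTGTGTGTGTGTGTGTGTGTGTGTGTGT
Its intensities were 95022 and 86068, a scaled difference of 0.17. The array has 51 probes with at least 10 GT repeats, and all 51 had a difference above 0 (0.05 to 0.47, median 0.25). Bright signals as a whole behaved alike: of 133 genes with a mean signal more than 8 above the 75th percentile, 127 were higher on the array labelled p38KO (median 0.25). With quantile normalization the Ung difference was -0.10, so its direction depends on the scaling, and how far the repeat alone captures labelled RNA was not tested. Msh6 and Pms2, the mismatch repair genes of the set, differed by 0.44 and 0.02, Msh6 with intensities of 542 and 590. The other probe of Pms2 differed by -0.29.

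The rest of the same pathways gave a like picture. Of 106 further repair genes in 8 lists, 104 were measured, with 52 lower, 52 higher and a median difference of 0.00. At 2-fold, 6 were lower (5.77%, against 6.71% of all genes measured): Ercc6 (-1.39), the coupling factor of repair to transcription, Msh5 (-1.30), which acts in meiosis, Nthl1 (-1.22), a glycosylase for oxidized pyrimidines, Mus81 (-1.22), a nuclease of joined molecules, Primpol (-1.03), which reprimes stalled forks, and Mnat1. The other Msh5 probe was higher by 1.16. At 2-fold, 1 was higher (0.962%, against 4.11%), Dntt (1.02), which adds bases to the ends of antigen receptor genes in lymphoid precursors. By list, the genes lower and higher by 1.5-fold or more, beside shares of 15.6% and 12.7% over all genes measured, were 1 and 1 of 16 for damage signalling, 2 and 2 of 9 for end joining, 2 and 0 of 23 for homologous recombination, 1 and 2 of 10 for the Fanconi anemia pathway, 2 and 1 of 5 for mismatch repair, 5 and 0 of 14 for nucleotide excision repair, 1 and 2 of 17 for base excision and single-strand break repair, and 2 and 1 of 10 for translesion synthesis and direct reversal. The medians of these lists ran from -0.24 for nucleotide excision repair to 0.24 for the Fanconi anemia pathway.

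The promoters of the genes can be described without the array values. RefSeq promoter windows (build GRCm38.p6, 250 bases before to 50 after a transcript start) were at hand for 36 of the 46 genes, in 40 windows. Their median GC content was 59.8%, and 58.7% in the 16953 windows of all genes measured, with a median of 22 CpG dinucleotides against 17. The letters TTTCCCGC, a binding motif of the E2F factors that drive S phase genes, stood on either strand in 6 of the 40 windows (15%) and in 1.68% of the windows of all genes measured (1.07% of all 32851 windows). The letters CCAAT stood in 22 of 40 (55.0%, against 37.5%), CCGGAAGT, an ETS motif, in 4 (10%, against 6.28%), the E2F form TTTGGCGC in 0 (against 0.796%) and TGACTCA, the AP-1 motif, in 0 (against 4.04%). No overlap between these motifs, or between windows of the same gene, was removed. The pair of Rad54l windows is nearly the same sequence, and both hold CCAAT. The motif counts are a description of these windows and show no binding.

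The 6 genes with TTTCCCGC were Brca2, Chek2, Fancg, Mdc1, Msh6 and Xrcc6, and 3 of their windows are shown, 5′ to 3′ on the strand of the gene, with the motif or its reverse complement GCGGGAAA in capitals.
Chek2 (chr5:110839733-110840032, plus strand): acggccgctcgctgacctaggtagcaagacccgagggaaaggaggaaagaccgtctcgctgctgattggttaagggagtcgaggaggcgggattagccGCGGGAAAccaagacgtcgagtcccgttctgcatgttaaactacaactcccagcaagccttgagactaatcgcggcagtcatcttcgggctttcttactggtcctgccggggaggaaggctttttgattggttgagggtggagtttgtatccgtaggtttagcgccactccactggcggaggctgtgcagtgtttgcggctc
Mdc1 (chr17:35841248-35841547, plus strand): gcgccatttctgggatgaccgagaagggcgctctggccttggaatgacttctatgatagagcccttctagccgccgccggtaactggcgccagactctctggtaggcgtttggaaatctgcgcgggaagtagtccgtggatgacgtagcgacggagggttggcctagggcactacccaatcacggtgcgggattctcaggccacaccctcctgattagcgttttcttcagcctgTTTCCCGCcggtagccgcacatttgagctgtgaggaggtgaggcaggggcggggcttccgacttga
Msh6 (chr17:87974800-87975099, plus strand): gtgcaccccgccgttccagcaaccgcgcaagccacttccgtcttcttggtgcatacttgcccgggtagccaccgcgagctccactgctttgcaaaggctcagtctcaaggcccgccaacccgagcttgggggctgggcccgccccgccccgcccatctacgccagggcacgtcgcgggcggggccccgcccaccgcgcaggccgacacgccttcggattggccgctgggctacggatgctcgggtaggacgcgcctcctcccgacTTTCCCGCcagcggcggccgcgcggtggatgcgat
The motif begins at base 99 of the window in Chek2, 235 in Mdc1 and 266 in Msh6. Their differences had no common sign: Chek2 differed by -1.22, Fancg by -0.46, Xrcc6 by -0.31, Brca2 by 0.03, Mdc1 by 0.04 and Msh6 by 0.44. Of 24 proliferation genes, which include many E2F targets, 14 were higher and 10 lower, with a median of 0.10.

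Facts of the arrays bear on all of these values. The targeted gene Mapk14 was not lower on the array labelled p38KO (-0.04 and -0.05 at its pair of probes). Neither probe is known here to lie in the floxed part, so they do not check the deletion, and every direction above rests on the label. The paper checked the deletion by genomic qPCR in blood cells of mice of this age, not in these LT-HSCs. It reports a reduction that fell short of complete loss. Of 18 genes of HSC identity, all well above background on both arrays, 17 were lower on the array labelled p38KO (median -0.55), and the log2 of their summed signal was 7.61 and 7.26. Myeloid genes were higher in 10 of 14 (median 0.95; summed 7.77 and 8.23), with S100a9 at 2.01 and Elane at -1.41. Most of the myeloid sum, and of its rise, came from the brightest Itgam probe alone (difference 0.42). The further Itgam probes were at -0.42 and 0.88, so that sum does not show a rise shared by the myeloid genes. All 10 measured of 11 B cell genes were higher (median 0.62, summed 3.87 and 5.12). Most of the rise in that sum came from Jchain alone (0.18 and 3.93). Ms4a1, Ebf1 and Blk were detected on the array labelled p38KO only, so that the filter fixed their direction. Also higher were 7 of 9 measured of 12 T and NK cell genes (median 0.62, summed 4.37 and 4.67). The ends were Icos at 3.54 and Zap70 at -4.43, whose other probe was at -0.03. Igll1, Cd3d and Cd3g were dim on both arrays. Other marker lists were mixed. Of 9 genes listed as excluded by the sort, 5 were higher and 4 lower (median 0.36). The list does not match the gate exactly. Ptprc (-0.27) encodes CD45, of which the lineage mix in the paper holds only the B220 form. Itga2b (-0.37) encodes CD41, which the paper's microarray gate excludes and the gate on the label does not name. Of 9 measured erythroid genes, 6 were higher and 3 lower (median 0.27). Of 9 measured megakaryocyte genes, 4 were higher and 5 lower (median -0.003). In sorted bulk cells, fewer cells of a type and less RNA per cell cannot be told apart, and the part of other cells in the repair gene differences was not tested.

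The counts past 1.5-fold were the same under other scalings and changed with an offset added to the background-corrected signal. The other scalings were quantile normalization, a loess between the arrays, centring on the median and the authors' own normalized values. Under these and other rules for the probes, the same 4 genes were at least 2-fold lower and the same 8 past 1.5-fold. Several of these had little room to change the calls. Centring and the authors' values differ from the main scaling by a constant per array. Of the 8 genes only Fanca had more than 1 probe, and all 8 were well above background on both arrays, so filters and floors left them as they were. Under normexp, a model-based background correction, with an offset of 50 added to each signal, 0 genes reached 2-fold, 3 were lower by 1.5-fold or more (Chek2 -0.70, Mre11a -0.66 and Ercc1 -0.64), and Chek1 (0.62) was the 1 gene higher. An offset draws dim signals together by construction: over all genes the share at least 2-fold lower became 0.727%. With normexp and no offset, chosen after seeing the data, the same 8 genes were past 1.5-fold. Ercc1 (-1.34), Chek2 (-1.18) and Ercc3 (-1.12) were again past 2-fold, and Brca1 was at -0.84. Of the 8 genes Brca1 moved most between the scanner's processed signal and normexp with the offset, from -1.19 to -0.04.

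**Figure D4:**
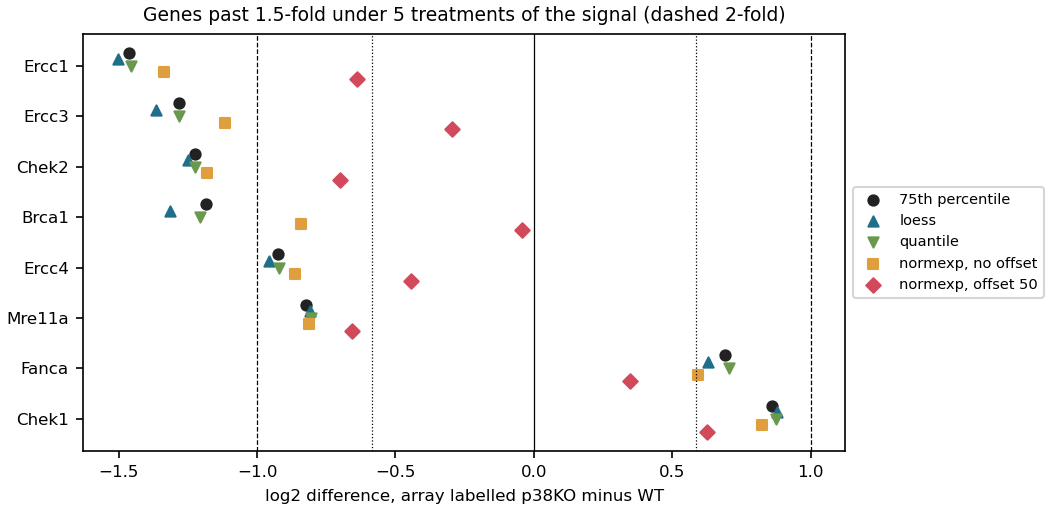
Log2 difference, array labelled p38KO minus WT, of the 8 genes past 1.5-fold under 5 treatments of the signal; dashed lines mark 2-fold and dotted lines 1.5-fold. All 8 keep their direction, and with normexp and an offset of 50 every value lies closer to 0, with Brca1 at -0.04.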

How the data were processed

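LT-HSC RNA of 1 WT and 1 p38KO sample was hybridized to Agilent mouse arrays. The authors deposited the intensity of every spot, read by Agilent Feature Extraction 11.5.1.1 (submitters' processing notes), background-corrected but not normalized between arrays. A deposited table gives normalized log2 values of 35795 probes, in which each column equals the log2 intensity minus 1 constant (within 0.01), with medians of -0.79 in both columns. Design coordinates are mm9.

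Control and outlier spots were left out, log2 intensities were averaged per probe and the array's 75th percentile (7.16 WT, 6.85 p38KO) was subtracted. Of 55662 probes, 31778 were named through symbols or accessions of assembly GRCm38.p6. The brightest probe stood for a gene. Only genes detected (well above background) on 1 array or both were kept, and signals under the lowest detected one were set to it. Probes well above background were 67.9% (WT) and 69.0%, and no spot was saturated. Precision is limited by the number of arrays, 1 per group, and no test was made. Genes described in full are those past 1.5-fold, those dim on an array, those whose probes differ by over 1 (log2), and Atm, H2afx and Trp53bp1. Of other repair genes, those past 2-fold are named. The members and lists were chosen with earlier results of these data known. The alternatives were other scalings (quantile, median, loess with a span of 0.3), normexp, the deposited table, filters, floors, probe rules and flagged spots. The calculation was tested on simulated data. Software was R 4.3.3 with limma 3.58.1, and Python 3.11.15 with pandas 2.3.3 and statsmodels 0.14.6.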

Additional observations from a re-analysis of the deposited data

How the results depend on the processing

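Of 60 recalculated summaries of the repair genes under 12 alternatives, 57 stayed close to the values given. Close means a count within 1.5 times and a median within the spot error. Several alternatives had little room to change the counts. Some only subtracted another constant per array, and the genes past 1.5-fold, mostly with 1 probe, were detected on both arrays. The exceptions all came from normexp with an offset of 50: 0 genes at least 2-fold lower (in place of 4), 3 at least 1.5-fold lower (in place of 6) and 1 at least 1.5-fold higher (in place of 2), while over all genes the same offset took the numbers at 2-fold from 1154 to 125 lower and from 706 to 49 higher. Normexp with no offset gave 3 genes at least 2-fold lower, without Brca1. No gene past 1.5-fold changed sign under any alternative run. Among single genes, 504 values moved by less than the spot error of 0.14 and 36 by more. They included Brca1 (to -0.04), Ercc3 (to -0.30) and Ercc1 (to -0.64) with the normexp offset, and Atr (to 0.56), Trp53bp1 (to -0.37) and Lig3 (to -0.42) where probes of a gene were averaged. No paired analysis was possible because each group has 1 array, and for the same reason no replicate could be left out. Weak signals limit the reading of Brca1, Ercc3, Fanca and Fancd2, among others.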
